A study of Mus musculus with 14 samples.

Results

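The sites described here are CpG positions inside introns of genes that carried only 1 or 2 such positions in the authors' list of differentially methylated sites. They were chosen by annotation and by count: each row annotated as intronic was kept where its gene name occurred in no more than 2 intronic rows. This gave 1186 sites in 980 gene names, of 1638 intronic sites and 4327 listed sites in all. Of these names, 774 held 1 site and 206 held 2. A further 123 names held 3 or more and make up the other 452 intronic sites. Among the 980 names, 5 join several neighbouring genes, and they account for 6 of the 1186 sites.

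The DNA came from mammary tumours of FVB mice of about 25 weeks that carry an SV40 Tag transgene, which encodes the large T antigen of a simian virus. The mothers (dams) of the maternal genistein group ate 250 mg/kg genistein, a soy isoflavone that binds oestrogen receptors, from 4 weeks of age until their young were weaned. Mothers of the control group ate control diet. Every offspring animal in both groups was kept on control diet and carried the transgene, so there was no tumour-free or non-transgenic group. Reduced representation bisulfite sequencing (RRBS) was run on 3 control and 4 maternal genistein tumours, and RNA sequencing on 3 and 4. The labels used here give neither the promoter of the transgene nor the litter of a tumour. Whether tumours of a group shared a dam is therefore not known. The spread between libraries may also be partly technical.

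CpG methylation is the addition of a methyl group to cytosine next to guanine. In mammals most CpGs inside transcribed genes are methylated, while CpG-rich gene starts and active enhancers, many of which lie in introns, are usually not. RRBS reads fragments made by a restriction enzyme that cuts at CCGG, and the methylation level of a site is the share of its reads that stayed cytosine after bisulfite treatment. A tumour is a mixture of malignant, stromal and immune cells, so a level between the extremes can come from cells or from alleles that differ.

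Only a few of the sites lay where RefSeq sequence was at hand. Of the 1186, 7 fell within a RefSeq promoter window, from 250 bases before to 50 bases after a gene start. Another 2 lay within 1000 bases of a miRNA hairpin. The 4 promoter windows below are shown because the measured CpG can be seen in its surroundings, either just before a gene start nested in the intron of a larger gene or just before a RefSeq start of the gene itself. That reason holds for the windows not shown as well. Those shown include every one of the 7 sites whose groups did not overlap. The sequences are RefSeq's on GRCm38.p6, 5′ to 3′ on the strand of the gene started there, and the capitals mark the measured CG.
Mcts2 start inside H13 (chr2:152686898-152687197, plus strand): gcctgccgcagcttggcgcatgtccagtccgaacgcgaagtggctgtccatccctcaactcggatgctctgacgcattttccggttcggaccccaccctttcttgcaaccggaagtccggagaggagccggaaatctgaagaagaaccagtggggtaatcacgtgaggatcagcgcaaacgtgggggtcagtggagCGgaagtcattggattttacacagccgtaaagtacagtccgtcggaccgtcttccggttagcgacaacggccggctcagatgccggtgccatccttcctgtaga
4930470B04Rik start inside 2010300C02Rik (chr1:37660438-37660737, plus strand): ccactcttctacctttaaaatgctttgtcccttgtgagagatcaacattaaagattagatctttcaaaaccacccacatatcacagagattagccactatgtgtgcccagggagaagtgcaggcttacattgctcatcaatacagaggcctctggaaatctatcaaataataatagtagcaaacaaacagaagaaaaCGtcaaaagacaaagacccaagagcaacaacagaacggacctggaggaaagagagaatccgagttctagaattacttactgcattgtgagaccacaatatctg
Gucy1a1 (chr3:82145024-82145323, minus strand): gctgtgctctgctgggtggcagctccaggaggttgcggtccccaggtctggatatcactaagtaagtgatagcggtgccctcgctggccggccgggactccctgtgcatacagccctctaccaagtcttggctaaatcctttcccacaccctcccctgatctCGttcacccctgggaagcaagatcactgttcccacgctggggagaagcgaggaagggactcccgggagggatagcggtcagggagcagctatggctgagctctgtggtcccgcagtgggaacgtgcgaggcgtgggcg
Serpina3g (chr12:104235897-104236196, plus strand): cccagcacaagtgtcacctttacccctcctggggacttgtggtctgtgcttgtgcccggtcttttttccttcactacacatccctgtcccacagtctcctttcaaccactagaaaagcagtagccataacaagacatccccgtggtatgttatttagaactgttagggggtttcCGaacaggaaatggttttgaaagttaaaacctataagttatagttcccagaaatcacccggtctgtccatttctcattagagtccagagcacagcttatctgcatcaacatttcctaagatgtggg

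The window at Mcts2 held 25 CpGs and 7 copies of CCGG, against a median of 7 CpGs over 32544 windows, of which 53.0% held CCGG (a palindrome, so both strands are searched at once). Mcts2 is an intronless retrogene in an intron of H13 that is known as an imprinted gene in mouse, with methylation on the maternal allele. Its CpG, 54 bases before the start, stood at 46.2%, 52.0% and 55.7% in control replicates 1 to 3 and at 91.0%, 65.7%, 70.7% and 66.7% in maternal genistein replicates 1 to 4. The control tumours lay near the middle of the scale and every maternal genistein tumour lay above them, with a difference of group means of 22.3 points; the library with the fewest reads there had 12. The window at the start of 4930470B04Rik held 3 CpGs and 0 copies of CCGG. Its CpG, 53 bases before the start, read 69.5%, 75% and 93.4% in the control tumours and 52.5%, 47.9%, 43.0% and 59.2% in the maternal genistein tumours, again without overlap and in the other direction.

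Gucy1a1 encodes a subunit of soluble guanylate cyclase, the nitric oxide receptor, and its measured CpG lay 88 bases before a start with 15 CpGs in the window. Levels there were 56%, 69.2% and 11.8% in control tumours and 0%, 0%, 41.4% and 0% in maternal genistein tumours, so 1 tumour of each group fell in the range of the other. Serpina3g, a serine protease inhibitor of immune cells, had 4 CpGs in its window. Its levels were 33.0%, 11.1% and 16.8% in control tumours and 68.4%, 12.3%, 62.7% and 59.8% in maternal genistein tumours, of which replicate 2 lay among the controls. The other 3 sites in such windows lay at Tceal3, at a start inside Hook1 and at a start inside Ssh1, and the groups overlapped at all 3. Of 9 windows in all, 3 overlapping ones hold the 2010300C02Rik site, and 1 of these is shown.

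Both miRNA neighbours were chosen after their values were seen. The site in Ctdspl, a phosphatase gene whose intron hosts Mir26a-1, lay 65 bases past the hairpin. The mature sequences are printed because miR-26a is the product of that intron, with the seed (bases 2 to 8) in capitals.
mmu-miR-26a-5p: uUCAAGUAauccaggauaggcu
mmu-miR-26a-1-3p: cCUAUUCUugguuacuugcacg
The Ctdspl site, on chromosome 9 at position 119031950, read 68.6%, 72.4% and 38.9% in control tumours and 73.5%, 0%, 31.6% and 16.7% in maternal genistein tumours. The groups overlapped, with the highest level in a maternal genistein tumour. The Cln3 site lay 740 bases from Mir7059 and its groups overlapped as well.

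Across all 1186 sites, 671 (56.6%) had a higher mean level in maternal genistein tumours and 515 a lower one; over all listed sites 53.1% were higher. The median difference of group means was 30.9 percentage points among the higher sites and -30.3 points among the lower sites. The authors' list had been selected on this same contrast, every site having a pooled difference of at least 25.0 points and a q-value of at most 0.00757, so these differences are a description and were not tested. When each tumour counted equally, 265 sites differed by under 25 points and 58 by over 50 points, of which 33 were higher and 25 lower. Genes with 2 sites, just inside the limit on the number of sites, had 56.8% of sites higher and a median absolute difference of 31.5 points. Genes with exactly 3 sites, just outside it, had 56% and 33.1 points over 225 sites.

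The spread between tumours was of the same order as the differences. The mean SD of a site was 20.3 points over 3 control tumours and 21.6 points over 4 maternal genistein tumours. At 294 sites (24.8%) every tumour of one group lay above every tumour of the other, 177 of them with maternal genistein higher. Over all listed sites the groups did not overlap at 27.8%, with maternal genistein higher at 15.4% and lower at 12.3%. A quasi-binomial model of methylated and unmethylated reads, which takes account of spread between tumours, gave a p-value under 0.05 at 346 sites, or 29.2%, against 31.6% of all listed sites. After Benjamini-Hochberg adjustment over the 4327 listed sites, 0 of the 1186 passed, against 0.0462% of all listed sites (2 sites), and the lowest adjusted p was 0.103. limma on the levels passed 11, a count for which the share over all listed sites is not given here. Since the list was chosen on this contrast, nothing is read from these counts.

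Mean levels ranged widely among the libraries of one group. The mean level over the 1186 sites was 55.1%, 47.2% and 55.6% in control replicates 1 to 3 and 58.5%, 48.0%, 59.1% and 63.5% in maternal genistein replicates 1 to 4. Replicate 2 of either group was low: it had the lowest level of its group at 515 sites among the controls and at 438 sites among the maternal genistein tumours. Maternal genistein replicate 4 had the highest level of its group at 359 sites and was fully methylated at 288, more than any other library. It was also the shallowest, with a median coverage of 18 reads against 31 to 40 in the other 6 libraries, and leaving out any 1 library gave 660 to 676 sites with a higher mean in maternal genistein tumours. Control libraries had a mean coverage of 49.4 ± 2.64 reads per site (SD, n = 3) and maternal genistein libraries one of 38.1 ± 9.40 (SD, n = 4; two-sided exact permutation test, p = 0.0857; the smallest p this design allows is 0.0286).

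**Figure D1:**
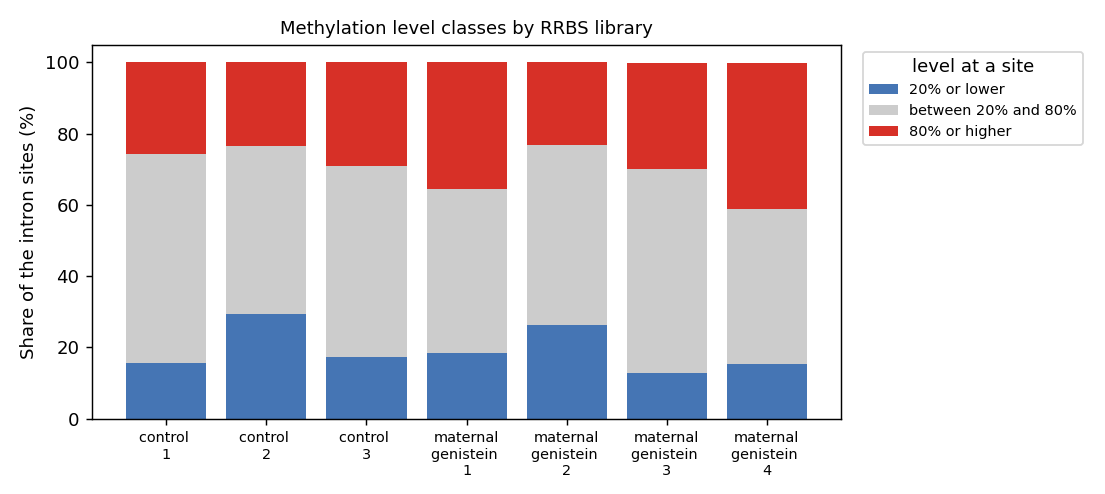
Share of the 1186 intron sites (y axis, percent) at 20% methylation or lower, between 20% and 80%, and at 80% or higher, with 1 bar for each RRBS library (3 control, 4 maternal genistein). The share at 80% or higher ran from 23.3% in maternal genistein replicate 2 to 41.1% in maternal genistein replicate 4.

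The bars of the level classes show many sites away from either end of the scale. Between 43.4% and 58.8% of the sites had a level between 20% and 80% in a library. Averaged over the 7 libraries this share was 51%, compared with 48.6% at introns of genes with 3 or more sites, 50.5% at intergenic sites and 44.7% at exonic sites. Within libraries the share exceeded that of exonic sites by 6.34 ± 4.44 points (SD, n = 7; higher in 6 of 7) and that of introns with 3 or more sites by 2.36 ± 1.64 points (SD, n = 7; higher in 6 of 7). Neither passed a two-sided exact sign-flip permutation test over libraries after adjustment for the 9 class comparisons made (adjusted p = 0.0703 for each, the lowest of the 9). With 7 libraries the smallest p of this exact permutation test is 0.0156 before adjustment. A single comparison could therefore not have passed alone, and no equality of the classes is read from these results. Mean coverage was lower than at intergenic sites in 7 of 7 libraries (a difference of -2.29 reads) and higher than at exonic sites in 7 of 7 (3.32 reads), with an adjusted p of 0.0703 for each in the exact permutation test. Among sites with at least 20 reads the difference from exonic sites turned to -9.80 reads with the same adjusted p in that permutation test. The mean level differed from that of the 3 other classes by 2.13, 0.353 and -0.668 points, with adjusted p-values of 0.141, 0.797 and 0.633 in the same exact permutation test. At 20 reads or more, the difference in level from introns with 3 or more sites was 0.192 points and that in the intermediate share 1.09 points.

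The rule counts listed sites per gene, and a longer gene can hold more of them, so lengths and distances are description only. The genes with few sites were shorter than those with many. Their median RefSeq length was 94.2 kb over 959 genes, against 206 kb over 118 genes with 3 or more intronic sites. Where the start of the gene was known, the median distance of a site from it was 27.5 kb (861 sites), and 69 sites (8.01%) lay within 1 kb, against 59.6 kb and 4.42% in genes with 3 or more. Mean control levels were 43.3% within 1 kb of a start and 55.5% beyond 100 kb. In maternal genistein tumours 35 of 69 sites within 1 kb were higher (50.7%), 105 of 207 from 1 to 10 kb (50.7%), 263 of 417 from 10 to 100 kb (63.1%) and 98 of 168 beyond 100 kb (58.3%). By chromosome, the autosomes had 659 higher and 495 lower sites. The X chromosome had 12 higher and 20 lower, and chromosome 14 had 25 higher and 10 lower, or 71.4% higher. Over all listed sites 31.0% were higher on the X chromosome and 65.3% on chromosome 14. Autosomes also differed among themselves: chromosome 16 had 17 higher and 28 lower sites (37.8% higher, against 37.5% on X) and chromosome 9 had 35 and 49.

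**Figure D2:**
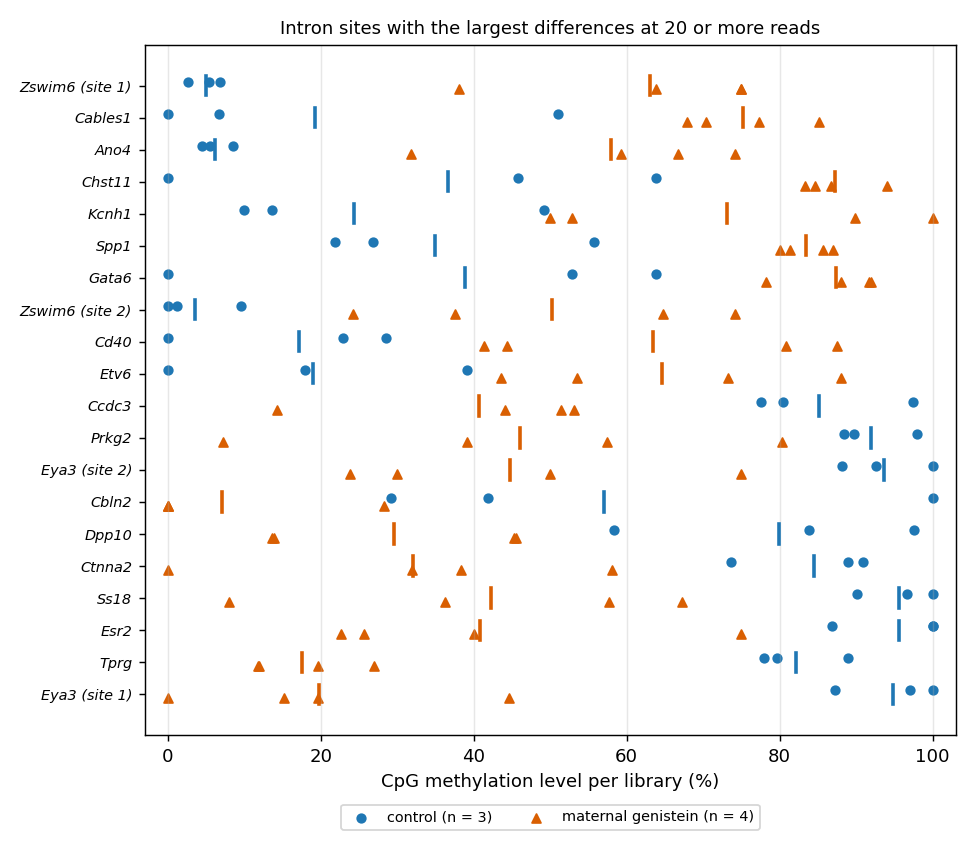
CpG methylation level per library (x axis, percent) at the 10 highest and 10 lowest differences among intron sites with at least 20 reads in every library and no overlap between groups (circles, 3 control; triangles, 4 maternal genistein; vertical ticks, group means). At Tprg and at site 1 of Eya3 the control tumours lie above 77% and the maternal genistein tumours below 45%, and at Zswim6 and Ano4 the control tumours lie below 10%.

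At 322 sites every library had at least 20 reads, and at 96 of these (29.8%) the groups did not overlap, against 33.1% of all listed sites at that depth. The lowest levels in maternal genistein tumours relative to control were in Eya3, Tprg and Esr2. Eya3 encodes a phosphatase and transcriptional coactivator that also acts in DNA repair. Its site at chromosome 4 position 132647807 read 87.2%, 100% and 97.1% in control tumours and 19.6%, 0%, 44.6% and 15.2% in maternal genistein tumours, a difference of -74.9 points. A second Eya3 site 5 bases away differed by -48.8 points, again without overlap. Tprg, a gene next to Trp63 that is regulated by p63, read 79.7%, 77.9% and 88.9% in control tumours and 12%, 11.8%, 19.6% and 27.0% in maternal genistein tumours. This site, at chromosome 16 position 25385320, had the tightest groups of the 3, with SDs of 5.91 and 7.26 points and 64 to 167 reads.

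Esr2 encodes oestrogen receptor beta, the receptor for which genistein has its higher affinity. Its intron site at chromosome 12 position 76133319, 43.9 kb from the gene start, was almost fully methylated in control tumours, at 100%, 100% and 86.8%. The maternal genistein tumours read 25.7%, 22.6%, 75% and 40.0%, which put all 4 below the controls but with an SD of 24 points. The others with lower levels were Ss18 at -53.3 points, a subunit of the BAF chromatin remodeller, and Ctnna2 at -52.4, a catenin that links cadherins to actin. They were followed by Dpp10 at -50.4, a potassium channel partner, Cbln2 at -50 (-28.5 without control replicate 2), a secreted synapse organiser, Prkg2 at -46.0, a cGMP-dependent kinase, and Ccdc3 at -44.5 points.

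Higher levels at this depth were led by Zswim6, Cables1 and Ano4. Zswim6, a zinc finger gene, had 2 sites about 1.8 kb from its start. At position 107888239 of chromosome 13 the control tumours read 2.60%, 6.90% and 5.36% and the maternal genistein tumours 75%, 63.9%, 38.1% and 75%. The control tumours were all near 0 and the differences were 58.0 and 46.5 points at its 2 sites. Ano4, a member of the anoctamin family, was measured 0.571 kb from its start and read 5.49%, 8.60% and 4.53% against 74.2%, 66.7%, 31.8% and 59.3%. Cables1, a regulator of cyclin-dependent kinases, differed by 56 points, although 1 control tumour stood at 51%.

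Spp1 encodes osteopontin, a secreted phosphoprotein abundant in mammary tumours and macrophages. Its site, 0.318 kb from the start at chromosome 5 position 104436510, read 21.9%, 26.9% and 55.8% in control tumours and 87.0%, 85.7%, 81.4% and 80% in maternal genistein tumours. The maternal genistein tumours lay within 7 points of each other (SD 3.35 points). Further higher sites were in Chst11 (50.6 points), a chondroitin sulphotransferase, Kcnh1 (48.9), a voltage-gated potassium channel, and Gata6 (48.6), a transcription factor of endoderm and heart. Cd40, a receptor of antigen-presenting cells, differed by 46.4 points and Etv6, an ETS family repressor, by 45.6. At Chst11, Gata6, Cd40 and Etv6 control replicate 2 was at 0%, below the other controls; without it Chst11 differed by 32.4 and Gata6 by 29.1 points.

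Larger differences were found at shallower sites. At Lhx2, a LIM homeobox factor of forebrain, limb and hair follicle, the site at chromosome 2 position 38341099 was at 0% in all 3 control tumours (15 to 30 reads). It stood at 100%, 100%, 45.5% and 100% in maternal genistein tumours, on 11 to 33 reads, a difference of 86.4 points and the largest of the 1186 sites. Lypd1, a modulator of nicotinic receptors, and Nsmaf, an adaptor of sphingomyelinase signalling, are named after their values were seen. The Lypd1 site was at 66.7%, 80% and 100% in control tumours and at 0%, 0%, 0% and 8.33% in maternal genistein tumours, on 10 to 27 reads. The Nsmaf site was at 16.9%, 15.4% and 15.9% in control tumours and at 100%, 77.8%, 70.6% and 100% in maternal genistein tumours.

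Differences of group means near 0 were also present, because the authors' list rests on pooled reads. The 3 smallest were in Cyb5d2 (-4.37 points), Lef1 (3.71) and Bsn (0.906). Lef1, a transcription factor of WNT signalling, stood at 0%, 84.7%, 60% and 0% in maternal genistein tumours, so 2 tumours lay below and 2 above the controls at 16.2% to 47.5%. Bsn, a presynaptic scaffold gene, is the only one of the 1186 sites where the mean of library levels and the pooled reads differ in sign, with -25.2 points on pooled reads.

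**Figure D3:**
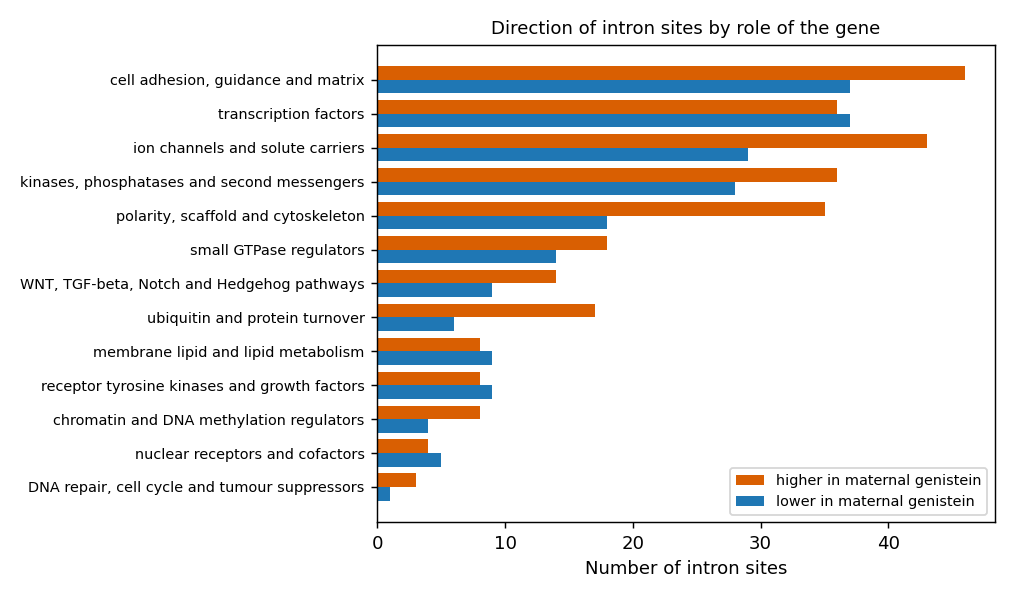
Number of intron sites (x axis) with a higher (orange) or lower (blue) mean level in maternal genistein tumours, for 13 lists of genes by role (y axis). Ubiquitin and protein turnover had 17 higher and 6 lower sites, and transcription factors had 36 higher and 37 lower sites.

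Of the 980 gene names, 384 (470 sites) fell in at least 1 of 13 lists of genes by role, and a gene could be in several. The counts describe the lists and were not tested; the background is 56.6% higher among the 1186 sites, with a median difference of 22.2 points. Groups did not overlap at 24.8% of the 1186 sites and 27.8% of all listed sites, and 177 of the 294 such sites, or 668 of 1202 over all listed sites, were higher. Transcription factors had 73 sites in 57 genes, 36 higher and 37 lower, with 18 not overlapping (24.7%, against 27.8% of all listed sites). Besides Lhx2, they included Tcf7l1, a repressor in WNT signalling, and Zfp608, a zinc finger gene that was 48.7 points lower with overlap. Tcf7l1 read 55.6%, 70.2% and 65.8% against 0%, 0%, 20.3% and 11.8% at position 72724132 of chromosome 6 (-55.8 points).

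Among nuclear receptors and their cofactors 4 sites were higher and 5 lower, with Esr2 the largest difference. Nr3c2, the mineralocorticoid receptor, had 2 sites 10 bases apart that were 35.9 and 33.5 points higher with overlap. Nr5a2, an orphan receptor that controls aromatase in ovary, was at 55.6% and 100% in maternal genistein replicates 1 and 2 and at 0% in replicates 3 and 4. In the WNT, TGF-beta, Notch and Hedgehog pathways 14 sites were higher and 9 lower, and 4 of the lower and 1 of the higher sites did not overlap. Over all listed sites, 534 of 2029 lower and 668 of 2298 higher sites did not overlap. Notch2, a receptor for Delta and Jagged ligands, read 80.4%, 82.0% and 75.6% in control tumours and 55.3%, 20.3%, 20% and 35.7% in maternal genistein tumours. Rspo2, a secreted WNT agonist and a common insertion site of mouse mammary tumour virus, differed by -42.9 points without overlap. Wnt5a, a ligand of non-canonical WNT signalling, differed by -44.4 points, with 1 control tumour at 2.86% (-70.8 without it, -28.7 without control replicate 2).

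Receptor tyrosine kinases and growth factors had 8 higher and 9 lower sites. Flt1, a receptor for vascular endothelial growth factors, differed by 47.8 points at one site, where control replicate 2 was at 0% (23.6 points without it), and by 25.8 points at a neighbouring one. Efnb1, an ephrin ligand encoded on the X chromosome, read 72.0%, 56.8% and 75% in control tumours and 24.3%, 0%, 37.1% and 21.9% in maternal genistein tumours. Gab1, a docking protein of these receptors, differed by -48.1 points and Nrg1, a ligand of the ERBB receptors, by -42.0, both with overlap. Small GTPase regulators had 18 higher and 14 lower sites, among them Arhgef10 (50.7 points, overlapping; 29.2 and 79.2 without control replicates 2 and 3) and Srgap3 (-48.5 points, not overlapping). Kinases, phosphatases and second messenger genes had 36 higher and 28 lower sites. Dagla, which makes the endocannabinoid 2-arachidonoylglycerol, was at 83.3%, 58.3% and 62.5% in control tumours and at 0%, 0%, 7.14% and 0% in maternal genistein tumours. Itpr1, a calcium release channel, differed by -52.3 points and Prkar1b, a regulatory subunit of protein kinase A, by 49.7, or 26.7 without control replicate 2.

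Ion channels and solute carriers had 43 higher and 29 lower sites, and 13 of the 17 that did not overlap were higher, against 177 of 294 over all 1186 sites. Cacna1c, the pore subunit of an L-type calcium channel, read 12.9%, 0% and 10.6% against 44.4%, 69.6%, 45.2% and 90.0%. Cell adhesion, guidance and matrix genes formed the longest list, with 83 sites in 67 genes, 46 higher and 37 lower. Of these, 25 (30.1%) did not overlap, against 27.8% of all listed sites. Lamc1, the laminin gamma chain of most basement membranes, read 0%, 34.3% and 29.6% in control tumours and 100%, 87.1%, 54.5% and 100% in maternal genistein tumours. Col4a1, a collagen of the same membranes, differed by -50.9 points with overlap. Polarity, scaffold and cytoskeleton genes had 35 higher and 18 lower sites. Ank1, an ankyrin that ties spectrin to the membrane, read 47.0%, 41.9% and 34.3% in control tumours and 73.1%, 87.8%, 88.9% and 90.9% in maternal genistein tumours. Myo1e, a class I myosin, was at 0%, 0%, 0% and 4.17% in maternal genistein tumours and at 30.1%, 75.8% and 28.6% in control tumours (-43.8 points, or -28.3 without control replicate 2).

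Ubiquitin and protein turnover genes had 17 higher and 6 lower sites (73.9% higher). Trim7, a ubiquitin ligase, read 61.5%, 13.6% and 0% in control tumours and 100%, 100%, 90.0% and 100% in maternal genistein tumours. Fbxo40, a substrate receptor of a ubiquitin ligase in muscle, differed by -52.6 points (-31.9 without control replicate 2), and Trim21 and Rnf182 were 47.2 and 46.2 points higher with overlap (Rnf182 29.6 without control replicate 3). Lipid genes had 8 higher and 9 lower sites, with Lipo1 at -40.2 points and Srebf1, a master regulator of lipogenesis, at 37.0. Chromatin and DNA methylation regulators had 8 higher and 4 lower sites, of which 2 did not overlap. Chd5, a chromatin remodeller known as a tumour suppressor, read 17.9%, 47.4% and 48.6% against 94.0%, 64.4%, 60.8% and 96.0%. Tet3, an enzyme that oxidises methylcytosine, was chosen after its values were seen and differed by 29.6 points with overlap. The list of DNA repair, cell cycle and tumour suppressor genes held 4 sites: Cdc14a (35.2 points), Fhit (33.7), Pola2 (25.9) and Trp53bp2 (-37.0), of which Cdc14a did not overlap.

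Keratins and other epithelial genes among the 1186 sites were named after their values were seen. Krt8, Krt18 and Krt19 encode keratins of luminal epithelium and Epcam an epithelial adhesion molecule. Krt19 read 55.3%, 34.7% and 59.2% in control tumours and 26.2%, 11.9%, 19.4% and 0% in maternal genistein tumours, without overlap. Krt8 and Krt18 had means 20.3 and 27.0 points higher with overlap (4.54 and 15.8 without maternal genistein replicate 1), and Epcam was 18.3 points lower on the strength of control replicate 3 at 60.9%; without that library Epcam differed by 0.433 points. Cdh3, the cadherin of myoepithelium, was at 0% in all 3 control tumours and in 1 of 4 maternal genistein tumours. Mylk, a myosin kinase of contractile cells, was 29.9 points higher with overlap. Methylation of these genes in bulk tumour cannot tell a change within a cell type from a change in its share.

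**Figure D4:**
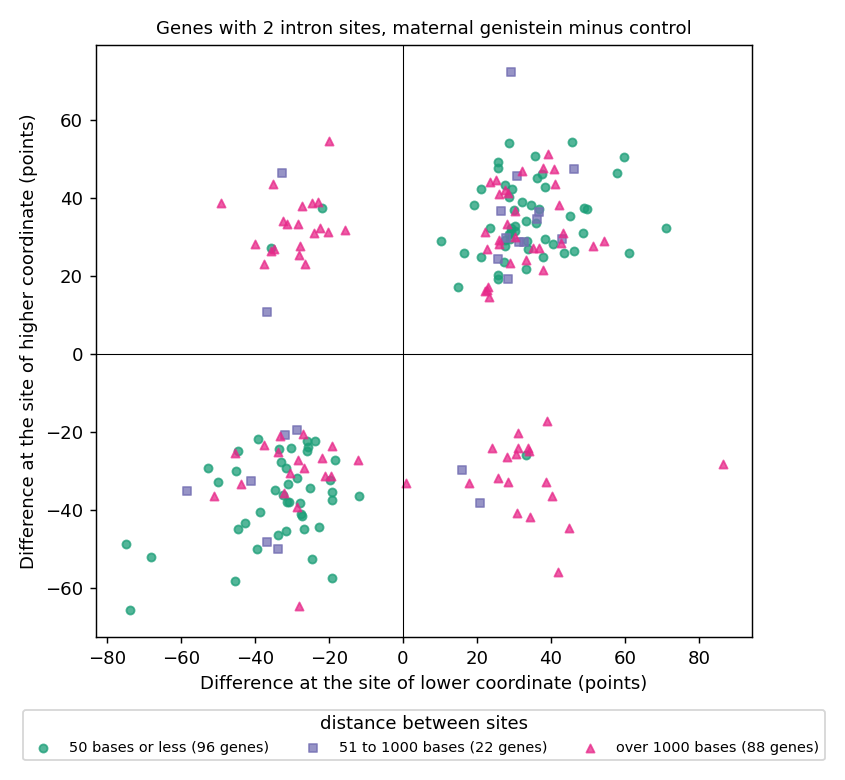
Difference of mean methylation (maternal genistein minus control, percentage points) at the 2 sites of each of the 206 genes with 2 intron sites, the site of lower coordinate on the x axis and that of higher coordinate on the y axis. Green circles, sites 50 bases or less apart (96 genes), lie in the same-sign quadrants except for 3; purple squares are 51 to 1000 bases apart (22 genes) and pink triangles over 1000 bases (88 genes).

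The 206 genes with 2 sites gave pairs that differ in spacing. In 96 genes the sites were 50 bases or less apart, close enough for a single read to cover both. In 93 of these both sites differed in the same direction, 51 higher and 42 lower. Of 22 pairs 51 to 1000 bases apart, 18 had the same direction. Of 88 pairs over 1000 bases apart, 49 had the same direction and 39 opposite directions. The deviations of single tumours from their group mean correlated across pairs with r = 0.576 at 50 bases or less (96 pairs), 0.249 at 51 to 1000 bases (22 pairs) and 0.106 beyond (88 pairs). These are descriptions over pairs that share libraries, and close pairs share reads.

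The closest pairs showed that neighbours could still differ by tumour. In Adamtsl1, a secreted matrix glycoprotein gene, the 2 sites were 1 base apart, which places them on the opposite strands of one CpG. They read 89.4%, 43.2% and 66.7% and 82.6%, 33.3% and 75.7% in control tumours. In maternal genistein tumours one strand read 13%, 21.1%, 33.3% and 18.2% and the other 0%, 10.7%, 55.0% and 70.0%, so replicates 3 and 4 differed between strands. Sites 2 bases apart in Anxa13 differed by -34.4 and -34.8 points, and those in Ralgds by 25.6 and 20.2, of which the second turned to -4.19 without control replicate 3. In Cfap77 the pair differed by 27.5 and 43.4 points and in Rims3 by 14.8 and 17.3 points, or 0.234 and 0.458 without maternal genistein replicate 1.

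Within 50 bases, 3 pairs went in opposite directions and are named after their values were seen: Dlgap4, Slit2 and Ddc. In Dlgap4, a synaptic scaffold gene, the sites were 33 bases apart. Control tumours read 69.1%, 67.1% and 35.5% at the first and 69.1%, 68.6% and 35.5% at the second. Maternal genistein tumours read 95.3%, 83.3%, 83.3% and 100% at the first and 41.9%, 32.0%, 28.6% and 25.0% at the second. The 2 sites were thus alike in every control tumour and far apart in every maternal genistein tumour, on 16 to 94 reads. In Slit2, a guidance ligand for Robo receptors, sites 28 bases apart differed by -35.7 and 27.3 points. In Ddc, aromatic amino acid decarboxylase, sites 37 bases apart differed by -21.9 and 37.4 points.

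Among all pairs of opposite sign the widest gap was in Lhx2, with 86.4 points and -28.3 points at sites 9118 bases apart, both without overlap. The second Lhx2 site read 41.0%, 66.4% and 52.9% in control tumours and 32.0%, 13.7%, 17.7% and 37.1% in maternal genistein tumours. Tcf7l1 differed by 42.0 and -55.8 points over 48121 bases, Caln1 by 44.8 and -44.6 over 30687 bases and Cacna2d2, a calcium channel subunit, by -49.0 and 38.8 over 14980 bases. The groups overlapped at both Caln1 sites and at the first Tcf7l1 site (25.9 points without control replicate 2). They did not overlap at the second Tcf7l1 site or at either Cacna2d2 site. In Cdhr3, a cadherin-related receptor, the sites were only 356 bases apart. The first read 66.3%, 100% and 84.7% against 45.0%, 42.1%, 64.8% and 52.0%, and the second 36.0%, 41.9% and 27.0% against 100%, 77.3%, 48.8% and 100%.

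Of the 139 regions in the authors' deposited table of differentially methylated regions, 3 held a site from these introns. In the authors' deposited table the region at Irx4, an Iroquois homeobox gene, spans 182 bases of chromosome 13 from 73262938 and has a mean of 63.7% in control and 17.4% in maternal genistein tumours. The region at Snx18, an endocytic sorting nexin, is at 72.2% and 17.6% in the authors' deposited table, and that at Cadm1, an adhesion molecule known as a tumour suppressor, at 11.4% and 60.6%. Of the 6 sites inside them 1, in Snx18, did not overlap between groups. It read 94.1%, 100% and 44.8% in control tumours and 0%, 0%, 23.8% and 0% in maternal genistein tumours. Cadm1 at position 47533848 of chromosome 9 read 1.64%, 0% and 18.5% against 100%, 5.33%, 33.3% and 77.8%, with maternal genistein replicate 2 among the controls.

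**Figure D5:**
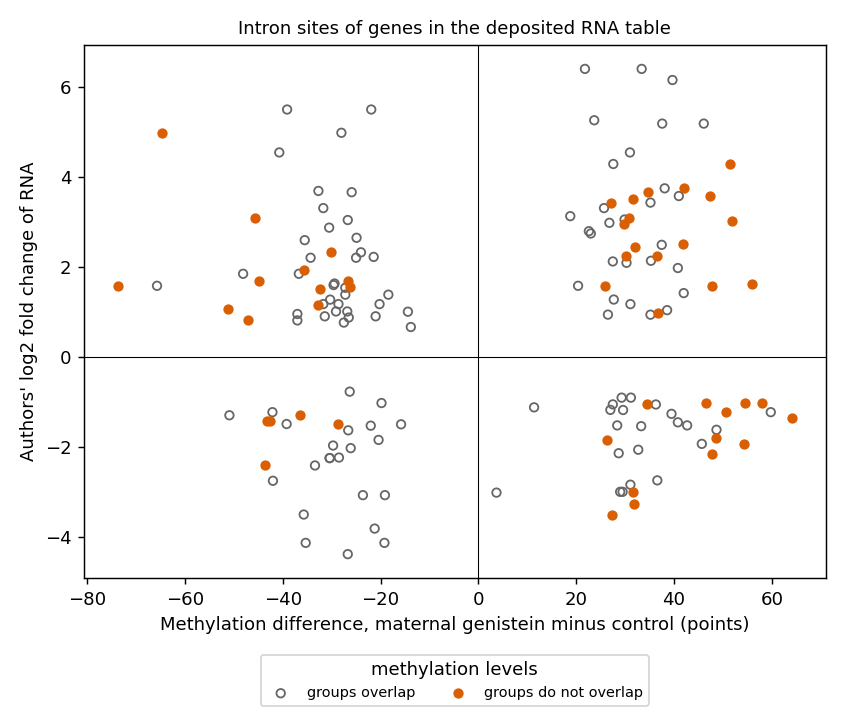
The authors' log2 fold change of RNA (y axis) against the methylation difference of the intron site (x axis, maternal genistein minus control, percentage points) for 158 sites of 121 genes in the authors' deposited RNA table; filled points are sites whose groups did not overlap. The 46, 35, 49 and 28 sites of the 4 combinations of sign fill every quadrant.

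RNA was compared through the authors' deposited table, which lists 1324 called genes. It held 121 of the 980 gene names (12.3%), against 12.8% of all 1103 names with an intronic site and 16.3% of the 123 names with 3 or more. Positive folds are read as higher in maternal genistein tumours; the header of the authors' deposited table does not say so, and the opposite reading would turn every RNA direction below. Of the 121 genes 74 had a positive and 47 a negative fold in the authors' deposited table, so 61.2% were positive against 58.0% of all its genes. By the edgeR column of that table, 24 of them did not reach a rate under 0.05. Sites with higher methylation had 46 positive and 35 negative folds, and sites with lower methylation 49 positive and 28 negative, in the authors' deposited table; with 58.0% of all its genes positive, nothing is read from the excess of positive folds. In bulk RNA, fewer cells of a type and less RNA per cell cannot be told apart. Over 20 chromosomes, the share of positive folds and relative RRBS coverage had r = 0.905. How far the folds of single genes follow DNA dosage was not tested.

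The largest folds belonged to Kcnb2 and Pax3. Kcnb2, a delayed rectifier potassium channel, had a log2 fold change of 6.39 (SE 0.834) in the authors' deposited table, and its 2 sites were 33.4 and 21.8 points higher with overlap. Pax3, a factor of neural crest and muscle precursors, had a log2 fold change of 6.15 (SE 1.07) in the authors' deposited table. Its site read 5.65%, 3.47% and 14.4% in control tumours and 18.8%, 9.23%, 72.3% and 89.7% in maternal genistein tumours, high in 2 of 4. Irx4 had a log2 fold change of 5.49 in the authors' deposited table, beside sites that were 39.1 and 21.9 points lower with overlap (-24.2 and -1.89 without control replicate 2). Tprg, at 4.97 (SE 0.677) in the authors' deposited table, joined a positive fold to methylation that was lower than every control in 4 of 4 tumours at the site described above and overlapping at its other site. Grip2 (5.25), Cntn5 (5.18), Lhx1 (4.54) and Crtac1 (4.28) had positive log2 folds in the authors' deposited table. The 2 sites of Lhx1 were 31.0 points higher and 40.7 points lower, 1.37 kb apart. Tmem117 and Cpm, a membrane carboxypeptidase, had negative log2 folds (-4.39 and -4.14) by the authors' deposited table, and their methylation was lower and overlapping; 1 of the 2 Cpm sites turned to 2.23 points without control replicate 3, and Tmem117 was at -14.6 without maternal genistein replicate 2.

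Genes named above for their methylation also appear with both signs. Spp1, with higher methylation near its start, had a log2 fold change of -1.81 (SE 0.459) in the authors' deposited table, at a normalised RNA count that averaged 45500. Lamc1 had -1.36 (SE 0.261) and Zswim6 -1.03 (SE 0.322) in the authors' deposited table, both with higher methylation. Ano4 had 3.01 (SE 0.533) and Cables1 1.62 (SE 0.335) in the authors' deposited table, likewise with higher methylation. Snx18 and Efnb1, both with lower methylation, had log2 folds of 1.57 and 0.83 in the authors' deposited table. Col4a1 and Nrg1, also lower in methylation, had -1.30 and -2.76 in the authors' deposited table. Krt18 had -1.18 in the authors' deposited table, and Krt8 and Epcam were not among its called genes. Cdh3 and Mylk had positive log2 folds of 2.09 and 3.05 in the authors' deposited table. Krt18, Cdh3 and Mylk all had higher methylation with overlap. Esr2, Eya3, Notch2 and Lhx2 were not among the called genes either.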

How the data were processed

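Mammary tumours of SV40 Tag mice were profiled by RRBS (3 control and 4 maternal genistein libraries) and RNA sequencing (3 and 4). Alignment and calling were the authors' work: their processing notes list Bismark, Trim Galore, STAR, HTSeq, DESeq, FastQC and R (version 3.6.1), and name mm10 and GRCm38, a single coordinate system. Which tool made which column is not given in the sources used here. As read per the file headers, the authors deposited methylated read counts and coverage counts per library at each listed CpG, with the percent methylation difference, a p-value and a q-value. The authors' region table gives group means as a fraction, printed as percent. The authors' deposited RNA table gives the averaged normalised count as a signal, a log2 fold change with its standard error, and adjusted p-values of called genes only.

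Levels were methylated reads over coverage, at least 10 reads in every library. Group means weight tumours equally. Counts per site were fitted over all 4327 sites with a quasi-binomial model (Pearson dispersion, floor 1, F test, Benjamini-Hochberg adjustment) in Python 3.11.15 with SciPy 1.17.1. limma 3.58.1 in R 4.3.3 was an alternative. The model was tested on simulated data. Coverage at these sites was 10 to 285 reads, and library totals there ran from 29571 to 60513 reads. PCR reads are not independent molecules. Positive RNA folds were read as higher in maternal genistein tumours because, over 20 chromosomes, the share of positive folds and relative RRBS coverage had r = 0.905. This is a description, and it assumes that expression follows DNA dosage.

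Sites, gene lists and named genes were chosen with earlier results of these data known. Named were the 10 largest differences in each direction with at least 20 reads and no overlap, the 10 largest RNA folds, up to 4 sites per list, the 5 closest pairs, up to 5 opposite pairs, the 3 smallest differences and sites in listed regions. Of these, 1 site that the rule names is not reported here. Lists were assigned by symbol patterns, and 24 misfit symbols were removed after values were seen. RefSeq placed 1160 of the 1186 sites by gene symbol. Sequences came from RefSeq tables, and no genome was used here. Alternatives covered depth, the test, the replicate block, the annotation, close sites and leaving out each library.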

Additional observations from a re-analysis of the deposited data

Results flagged for a closer look

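Of 120 named sites, 17 (14.2%) had 1 maternal genistein tumour set apart from the other 3 by Dixon's criterion for 4 samples, which chance meets in about 1 of 20 groups. Since most named sites were chosen for a large difference, that rate is no yardstick for them. At all of the 17 but Cfap77, Itpr1 and Serpina3g, the other 3 tumours were tied at 0% or 100%. With such a tie the criterion flags any lone value, however close. Replicate 2 stood apart at 7 sites, replicate 3 at 6, replicate 4 at 4 and replicate 1 at 0.

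Replicate 2 was the low one at Anks1 (69.2%), Arhgef10 (75%), Flt1 (85.3%), Mylk (89.3%), Serpina3g (12.3%) and Itpr1 (0%). At Cfap77 it was the high one (100%). Replicate 3 stood above the others at Cbln2 (28.3%), Dagla (7.14%), Gucy1a1 (41.4%) and Snx18 (23.8%), and below them at Lhx2 (45.5%) and Trim7 (90.0%). Replicate 4 stood above the others at Fbxo40 (23.8%) and Myo1e (4.17%), and below them at Cacna2d2 (76.9%) and Prkar1b (83.3%). At Anks1, Cbln2, Dagla, Fbxo40, Flt1, Itpr1, Lhx2, Myo1e, Prkar1b, Snx18, Trim7 and Cacna2d2 the groups did not overlap even with the lone tumour included.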

How the results depend on the processing

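The count with a quasi-binomial p under 0.05 was 346 of 1186 (29.2%, against 31.6% of all listed sites). It was 115 of the 322 sites with at least 20 reads in every library and 636 with a chi-square reference. That reference treats the estimated dispersion as known. For calls by p-value under these and the other settings below, shares over all listed sites are not given. The same holds for higher sites at 20 reads, and for higher and non-overlapping sites with 1 library left out. Nothing about these introns is read from such counts. After adjustment 0 passed; 1 passed at 20 reads (Tprg, adjusted p = 0.0492, named after its value was seen) and 11 passed with limma on levels, Tprg, Eya3, Lhx2 and Snx18 among them. At 20 reads, 96 sites (29.8%, against 33.1% of all listed sites at that depth) had groups that did not overlap. At that depth 188 were higher in maternal genistein tumours. Leaving out 1 library gave 235 to 322 sites with a p under 0.05, 0 after adjustment and 660 to 676 higher. It gave 388 to 494 sites without overlap, the most without control replicate 3, since fewer libraries overlap less often; without control replicate 1 there were 445.

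Deviations of same-numbered libraries correlated at 0.0221, 0.00903 and -0.0323. These values cannot tell whether tumours of one number shared a litter, which the labels used here do not give. The replicate block kept only replicate numbers found in both groups, so maternal genistein replicate 4 was left out. With the block 245 sites had a p under 0.05 and 0 passed adjustment. These counts rest on fewer libraries than the main count, so the effect of blocking alone cannot be read from them.

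Several class comparisons changed sign. Coverage against introns with 3 or more sites was 1.00 read higher as a median over sites. At 20 reads the level against intergenic sites was -1.40 points and coverage against exonic sites -9.80 reads. Leaving out 1 library, the level ran from -0.639 to 0.958 points against intergenic and from -1.10 to 0.0664 against exonic sites, and the intermediate share from -0.0703 to 1.01 against intergenic sites; the cause was not tested. The sites took 26.8% to 27.5% of a library's reads at listed sites in control and 25.9% to 26.5% in maternal genistein libraries, a difference of -0.738 points (two-sided exact permutation test, p = 0.0286, the smallest possible).

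Single sites that changed sign had small differences or controls that lay far apart. Ranges are over leaving out 1 library. Without control replicate 3, Ralgds at 28548318 was -4.19 points (up to 43.2), Cpm at 117683001 was 2.23 (down to -46.2) and Epcam was 0.433 (down to -30.0). Bsn was -25.2 on pooled reads and ran from -20.1 to 19.4, with negative values without control replicate 3 or maternal genistein replicate 2 or 4. Cyb5d2 ran from -20.3 to 11.6 and Lef1 from -12.5 to 15.8. At the named sites, 12 differences with 1 library left out changed sign, 3 moved by at least 1 SD of the site and 825 did neither. That SD comes from the same libraries, and leaving out 1 of them can hardly move a group mean so far. The 825 are therefore no measure of stability. At 50 of the 120 named sites leaving out 1 library moved the difference by over 1.5 times, most often without control replicate 2 (24 sites) or 3 (21 sites). For the counts of higher and non-overlapping sites the autosome setting, and for medians and spread those by depth or library, were added after the data were seen.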
